A study of Mus musculus with 6 samples.

Results

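The genes described here lie around Trim47 on mouse chromosome 11. They are the genes of the deposited expression table whose annotated start falls in a 2 Mb window that holds Trim47 (build GRCm38), leaving out symbols that begin with Trim, and their starts run from position 115116214 to position 117077348. The rule took 78 of the 26776 genes in the table, of which 61 are protein-coding, and no expression value entered it. The RNA came from bone marrow LT-HSCs, the long-term haematopoietic stem cells, of Trim47+/eGFP mice, sorted by reporter fluorescence into eGFPhi cells (3 libraries) and eGFPlo cells (3 libraries). Both groups carry the same reporter genotype, so no library stands for an unmodified Trim47 locus. The labels give no age, no sorting gate and no number of animals. Whether replicate libraries stand for different mice is not stated, and p-values therefore refer to the spread among these 6 libraries, which may be technical.

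Levels are CPM, read counts scaled to library size with TMM factors. A fold change is eGFPhi over eGFPlo from edgeR's quasi-likelihood fit on the whole table, with a log2-scale standard error (SE) and a Benjamini-Hochberg adjusted p over all 18081 genes tested. "Rose" and "fell" are used of genes with an adjusted p under 0.05. Library totals ran from 11221070 to 26058391 counts in eGFPhi and from 11706873 to 18151852 counts in eGFPlo. Of 10 HSC marker genes, 9 rose and 0 fell, with a summed level of 2006 to 2214 CPM in eGFPhi libraries and 947 to 986 CPM in eGFPlo libraries. Markers of other cells, mature neutrophils aside, were lower in eGFPhi. Of 6 granulocyte-monocyte progenitor genes, 6 fell (280 to 288 CPM in eGFPhi, 5220 to 5324 CPM in eGFPlo). Of 6 B cell genes, 6 fell (14.2 to 17.1 CPM in eGFPhi, 366 to 384 CPM in eGFPlo). Of 6 T and NK cell genes 4 were tested and fell, and Cd3e, Cd3g and Trbc2 had no count in eGFPhi (sum 7.92 to 8.95 CPM in eGFPhi, 61.1 to 63.5 CPM in eGFPlo). Of 6 erythroid genes 5 fell (26.7 to 28.5 CPM in eGFPhi, 44.5 to 47.2 CPM in eGFPlo), and of 6 mature neutrophil genes 2 rose and 1 fell, with no count of Ly6g in eGFPhi (118.6 to 124.3 CPM in eGFPhi, 121.5 to 126.1 CPM in eGFPlo). The part of these other cells in the values below was not tested, and in bulk RNA fewer cells of a type and less RNA per cell cannot be told apart.

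Trim47 encodes a ubiquitin ligase of the tripartite motif family. A fluorescent reporter inserted at a gene is used to read the activity of that gene's promoter cell by cell. Neighbouring genes on a chromosome can share enhancers, open chromatin or a promoter region, and some pairs are transcribed in opposite directions from starts that lie side by side. The stretch around Trim47 is dense in genes of everyday cell functions, among them histone H3.3, splicing and mitochondrial proteins, signalling adaptors and secretory machinery.

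Trim47 itself (ENSMUSG00000020773, chromosome 11, 116105752 to 116127210, minus strand) had 21.6, 26.2 and 23.3 CPM in eGFPhi libraries, against 7.28, 8.18 and 8.92 CPM in eGFPlo libraries. It was 2.91-fold higher (log2 fold change 1.54, SE 0.11, edgeR adjusted p = 1.69e-05); the cells were sorted on its reporter, so it serves only as the point from which distance is counted. Trim65, which shares 225 bp of exon with it on the same strand, averaged 19.3 ± 0.553 CPM in eGFPhi and 20.6 ± 1.87 CPM in eGFPlo (SD, n = 3 each) and did not pass the threshold (edgeR adjusted p = 0.373). Trim80, 657 kb away, had 3, 10 and 3 counts in eGFPhi libraries and no count in eGFPlo libraries. Its eGFPhi level was 4.14-fold above a floor of 3 counts over the eGFPlo group. Such floor ratios allow for counting error only in the group without counts. The count of the other group is taken as observed, so they are not lower limits.

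The genes around Trim47 did not change in 1 direction. Of 63 that passed the filter on low counts, 19 rose and 23 fell. Of these calls Cdr2l, Foxj1 and Mxra7 met the filter only through the group where they are higher, so their difference is partly set by the filter. The counts are 30.2% and 36.5% of them, beside 32.3% higher and 31.7% lower among all genes tested, and together 66.7% beside 64.0%. Their median log2 fold change was -0.07 (-0.18 without eGFPhi replicate 2), beside 0.0035 over all genes tested and -0.0085 over the other 1239 tested genes of chromosome 11. The median size of change, regardless of sign, was 0.40 on the log2 scale for the genes around Trim47 and 0.44 over all genes. The 3 eGFPhi values lay above the 3 eGFPlo values for 18 genes and below them for 23, where the shares over all genes are 35.2% and 34.6%, together 69.8%. With an assumed biological coefficient of variation of 0.2 in place of the measured spread, 7 rose and 7 fell, beside 20.1% and 16.5% of all genes.

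**Figure D1:**
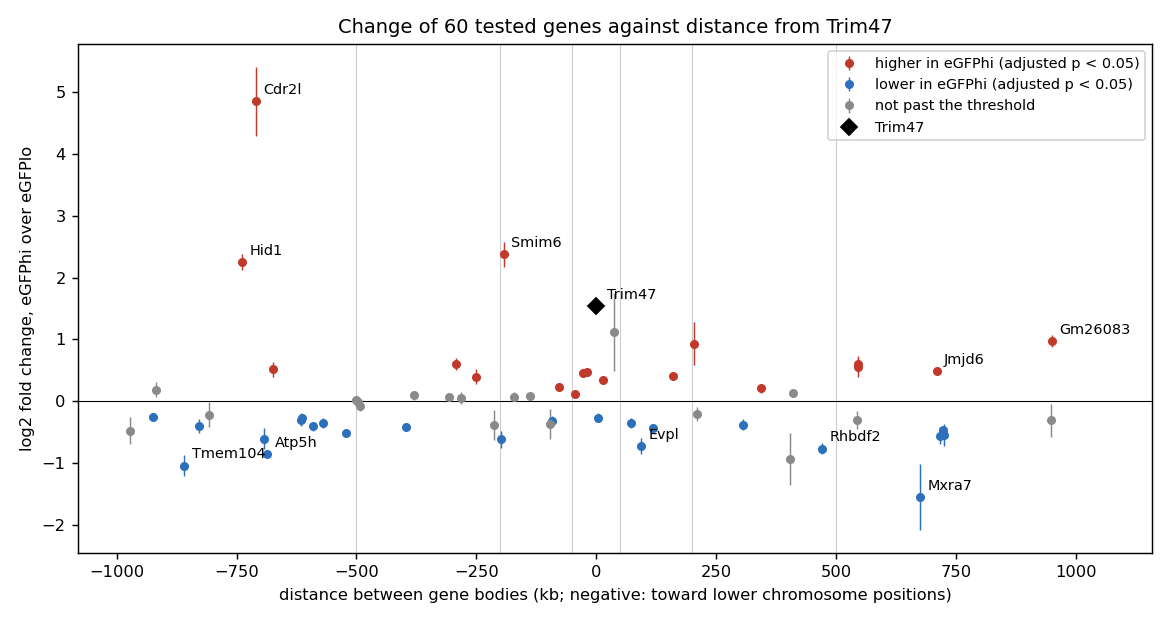
Log2 fold change (eGFPhi over eGFPlo, with SE bars) of 60 of the 63 tested genes against the distance in kb between their gene body and that of Trim47; grey lines mark 50, 200 and 500 kb. The largest rises, Cdr2l, Smim6 and Hid1, lie 710, 192 and 738 kb away.

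Distance was taken as the gap between annotated gene bodies. Within 50 kb of Trim47, 7 of 8 genes were tested, of which 5 rose and 1 fell. Their median log2 fold change was 0.46. Among the 56 tested genes at 50 kb or farther, 14 rose (25.0%) and 22 fell (39.3%), with a median of -0.24. From 50 to under 200 kb 3 rose and 5 fell of 11 tested (median -0.32), and from 200 to under 500 kb 4 rose and 3 fell of 18 (median 0.02). At 500 kb and more, 7 rose and 14 fell of 27 (median -0.30). The order was therefore not steady, and the nearest interval holds few genes. Across the 63 genes, log2 fold change and distance had a Pearson r of -0.07 and a Spearman coefficient of -0.24; without the genes within 50 kb the values were 0.01 and -0.11. The size of change regardless of sign had a Spearman coefficient of 0.16 with distance. These are descriptions across genes of the same 6 libraries, which are not independent replicates. On the side of lower positions 10 of 37 tested genes rose and 13 fell, and on the side of higher positions 9 of 26 rose and 10 fell. Counted from the shorter RefSeq gene body of Trim47 (116105750 to 116110235), 4 of 5 tested genes within 50 kb rose and 1 fell. Measured from start site to start site, 3 of 5 tested genes within 50 kb rose and 1 fell. The start of Trim47 was here 116127210, the upper end of its longer gene body. Distances between start sites were not taken from its RefSeq start, 116110235. The count near Trim47 thus depends on how distance is taken.

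**Figure D2:**
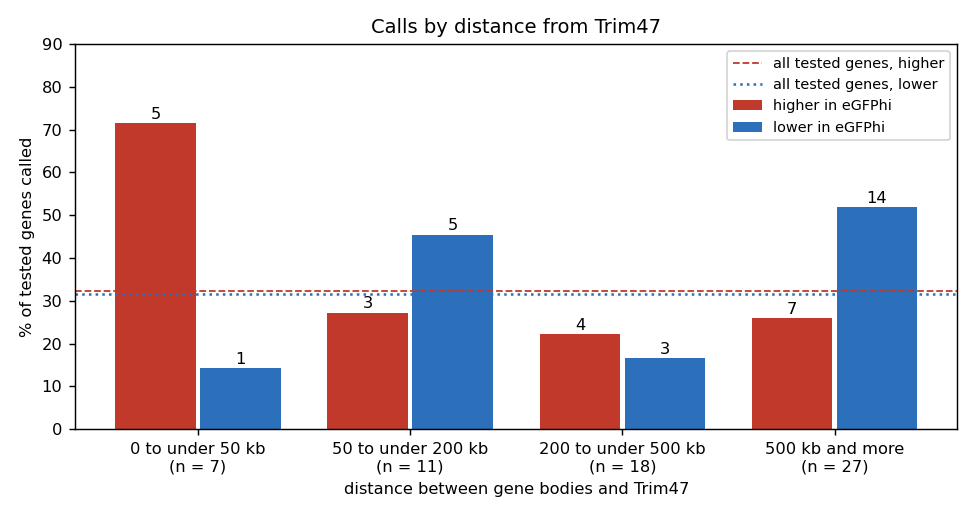
Share of tested genes called higher (red) or lower (blue) in eGFPhi, in % on the y axis, by distance from Trim47 on the x axis; numbers on the bars are genes, and lines give the shares over all tested genes (32.3% and 31.7%). Of 7 tested genes within 50 kb 5 were higher, and of 27 genes at 500 kb or more 14 were lower.

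The upstream stretches of Trim47 and of the 3 genes within 50 kb that rose and have a window in the RefSeq table used here (Wbp2, Fbf1 and Unk) are shown, since these genes stood higher in the same libraries. They are from RefSeq (GRCm38.p6), 5′ to 3′ on the gene's own strand, and end at the RefSeq start. For Trim47, 11 bases covered by an exon are left out. The Trim47 stretch lies inside the longer gene body (116105752 to 116127210) from which distance was first counted. Capitals mark CG dinucleotides, the sites of DNA methylation.
Trim47, chr11:116110247-116110485, minus strand: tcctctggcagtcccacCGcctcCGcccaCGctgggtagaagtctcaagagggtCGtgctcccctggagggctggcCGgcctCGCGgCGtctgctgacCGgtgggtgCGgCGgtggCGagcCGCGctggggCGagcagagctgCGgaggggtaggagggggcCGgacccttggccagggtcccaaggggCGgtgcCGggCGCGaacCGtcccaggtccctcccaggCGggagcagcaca
Wbp2, chr11:116086996-116087245, minus strand: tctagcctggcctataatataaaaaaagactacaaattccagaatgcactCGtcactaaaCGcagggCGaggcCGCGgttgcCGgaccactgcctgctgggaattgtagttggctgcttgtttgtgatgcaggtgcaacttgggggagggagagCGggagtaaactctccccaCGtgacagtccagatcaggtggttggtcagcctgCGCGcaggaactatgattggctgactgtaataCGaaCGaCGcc
Fbf1, chr11:116168179-116168428, minus strand: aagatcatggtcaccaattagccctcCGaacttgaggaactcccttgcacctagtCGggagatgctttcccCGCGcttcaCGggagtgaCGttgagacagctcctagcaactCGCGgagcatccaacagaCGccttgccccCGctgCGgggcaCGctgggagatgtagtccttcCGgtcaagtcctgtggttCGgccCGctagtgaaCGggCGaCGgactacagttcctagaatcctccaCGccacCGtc
Unk, chr11:116030066-116030315, plus strand: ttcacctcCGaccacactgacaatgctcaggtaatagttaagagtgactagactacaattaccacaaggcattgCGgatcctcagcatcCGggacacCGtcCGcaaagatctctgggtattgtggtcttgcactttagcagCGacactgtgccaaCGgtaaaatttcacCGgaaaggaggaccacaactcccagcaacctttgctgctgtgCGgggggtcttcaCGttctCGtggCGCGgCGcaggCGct
The 250 bases before the start held 25 CG in Trim47 (23 of them in the stretch shown), 20 in Fbf1, 15 in Unk and 13 in Wbp2, where the median of 32851 RefSeq windows was 6. At least as many CG occurred in 10.7% of windows for Trim47, 17.9% for Fbf1, 27.3% for Unk and 31.5% for Wbp2. Of the letters searched on both strands, CCGGAA was present in Fbf1 and Unk and in 12.0% of all windows, CACGTG in Wbp2 and in 6.02% of all windows, and GATAA in none of the 4 and in 22.6% of all windows; matches of different motifs can overlap by at most 1 base, and a match is a description of the window only. Of the 78 genes, 44 had a window in the RefSeq table.

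On the side of higher positions, the first gene past Trim65 is Mrpl38 (116131817 to 116138868, minus strand), which encodes a protein of the mitochondrial ribosome and fell. It had 24.1, 21.4 and 21.7 CPM in eGFPhi libraries, against 26.6, 27.9 and 26.2 CPM in eGFPlo libraries, with every eGFPhi value below every eGFPlo value (log2 fold change -0.27, SE 0.07, edgeR adjusted p = 0.0111). Fbf1 (116142285 to 116168166, minus strand), a component of the fibres that anchor the base of cilia, rose 15.1 kb from Trim47. Its values were 83.1, 85.0 and 86.7 CPM in eGFPhi libraries and 67.5, 67.7 and 66.4 CPM in eGFPlo libraries, 2 groups that do not overlap (log2 fold change 0.34, SE 0.04, edgeR adjusted p = 1.10e-04).

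The small RNA gene Gm26413 (ENSMUSG00000104857, annotated as a scaRNA, a class that guides RNA modification in Cajal bodies) lies inside the body of Fbf1. It had 0.801, 0.999 and 0.976 CPM in eGFPhi libraries, against 0, 0.909 and 0.332 CPM in eGFPlo libraries, and the groups overlap (edgeR adjusted p = 0.155). Without eGFPlo replicate 2 its log2 fold change was 2.21 with an edgeR adjusted p of 0.0249. With all libraries and an assumed coefficient of variation of 0.2 it also passed (log2 fold change 1.12, edgeR adjusted p = 0.0301). The call therefore depends on that library and on the spread used. A second annotation of Gm26413 at the same place (ENSMUSG00000105120) had 3 counts in eGFPhi and 5 in eGFPlo in all and was not tested; reads of both entries cannot be told apart.

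On the side of lower positions all 3 genes within 50 kb rose. Wbp2 (116078573 to 116086995, minus strand) encodes a WW domain-binding transcriptional coactivator. It had 60.5, 62.5 and 53.4 CPM in eGFPhi libraries and 42.0, 42.9 and 42.6 CPM in eGFPlo libraries, without overlap (log2 fold change 0.47, SE 0.06, edgeR adjusted p = 4.89e-04). Unc13d (116062095 to 116077961, minus strand), which encodes the Munc13-4 protein that primes secretory granules of blood cells for release, had 118, 122 and 126 CPM in eGFPhi libraries and 85.8, 88.9 and 91.8 CPM in eGFPlo libraries. Its eGFPhi values again all lay higher (log2 fold change 0.46, SE 0.04, edgeR adjusted p = 4.51e-05). Unk (116030322 to 116061214, plus strand), an RNA-binding zinc finger protein, differed least, with 56.8, 56.7 and 54.2 CPM in eGFPhi libraries and 51.7, 50.9 and 51.7 CPM in eGFPlo libraries (log2 fold change 0.12, SE 0.04, edgeR adjusted p = 0.0357). Its call was lost without eGFPhi replicate 1 or 2 or any 1 eGFPlo replicate (edgeR adjusted p of 0.0666 to 0.105) and in DESeq2 (adjusted p = 0.159). With the assumed coefficient of 0.2, Fbf1, Wbp2, Unc13d, Unk and Mrpl38 did not pass (edgeR adjusted p of 0.115 to 0.748).

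**Figure D3:**
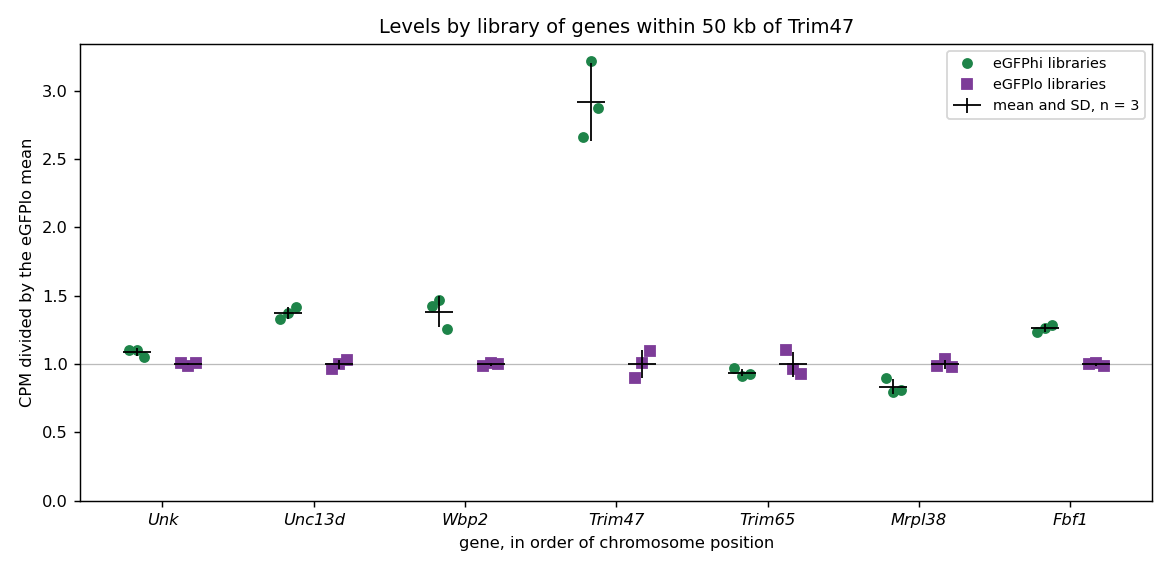
CPM of each library divided by the eGFPlo mean of the gene (y axis), for Trim47, Trim65 and 5 of the 6 tested protein-coding genes within 50 kb in order of position (x axis); points are libraries, bars the mean and SD of n = 3. Mrpl38 lies below 1 in all eGFPhi libraries, and Unk, Unc13d, Wbp2 and Fbf1 lie above 1.

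The counts for groups of genes by role are descriptions of few genes each, to be read beside the 32.3% of all tested genes that rose and the 31.7% that fell. Genes of membrane traffic and secretion rose or did not pass: of 4 tested, 3 rose and 0 fell (median log2 fold change 0.43), Unc13d among them. Hid1 (115347707 to 115367756, minus strand), a protein of Golgi and secretory granule formation, was the largest rise among them. It had 28.6, 29.4 and 32.0 CPM in eGFPhi libraries, against 4.97, 6.64 and 7.09 CPM in eGFPlo libraries, so the lowest eGFPhi value was far above the highest eGFPlo value. The change was 4.76-fold (log2 fold change 2.25, SE 0.13, edgeR adjusted p = 4.93e-06). Exoc7, a subunit of the exocyst that tethers vesicles to the plasma membrane, had 54.5, 54.4 and 53.7 CPM in eGFPhi libraries and 42.7, 38.9 and 41.3 CPM in eGFPlo libraries (log2 fold change 0.40, SE 0.05, edgeR adjusted p = 2.32e-04). Gga3, a clathrin adaptor of the Golgi, averaged 42.8 ± 1.58 CPM in eGFPhi and 42.1 ± 0.752 CPM in eGFPlo (SD, n = 3 each), a difference within the replicate spread (edgeR adjusted p = 0.824).

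All 7 tested signalling adaptors and regulators, Wbp2 among them, passed the threshold, 4 higher and 3 lower, where 64.0% of all tested genes passed (32.3% higher and 31.7% lower). The list holds the low-count genes Cdr2l and Mxra7, which met the count filter only through the group where they are higher. The share of the list that passed is therefore partly set by the filter. Grb2, the adaptor that links activated receptor tyrosine kinases to Ras, fell, with 75.7, 81.2 and 78.2 CPM in eGFPhi libraries and 103, 105 and 106 CPM in eGFPlo libraries (log2 fold change -0.42, SE 0.04, edgeR adjusted p = 5.46e-05). Slc9a3r1, a PDZ scaffold of membrane transporters, fell by 0.26 on the log2 scale (90.6 ± 1.14 CPM in eGFPhi, 108 ± 1.93 CPM in eGFPlo; SD, n = 3 each). Caskin2, a scaffold protein, rose, with 26.6, 29.0 and 31.5 CPM in eGFPhi libraries and 20.99, 17.1 and 19.8 CPM in eGFPlo libraries (log2 fold change 0.60, SE 0.10, edgeR adjusted p = 0.00117). Its last exons overlap those of Tmem94 on the other strand by 184 bp. The cell polarity gene Llgl2 stood at 10.5 ± 1.54 CPM in eGFPhi and 8.03 ± 0.397 CPM in eGFPlo (edgeR adjusted p = 0.0272), a call lost without eGFPhi replicate 2 or 3 or eGFPlo replicate 1 or 2 (adjusted p of 0.0692 to 0.0901).

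Cdr2l and Mxra7, singled out after their values were seen because they had the largest rise and fall of log2 fold change, are both low. Cdr2l, related to an antigen of paraneoplastic cerebellar disease, had 14, 43 and 30 counts in eGFPhi libraries, against 0, 0 and 2 counts in eGFPlo libraries. Its ratio was 33.8, with an exact 95% counting interval of 9.07 to 283; it met the count filter only through eGFPhi, and no p is given for it. Mxra7, a matrix remodelling-associated protein that met the filter only through eGFPlo, had 0, 0.346 and 0.514 CPM in eGFPhi libraries and 0.942, 1.19 and 0.831 CPM in eGFPlo libraries (log2 fold change -1.55, SE 0.53, edgeR adjusted p = 0.0343). Its call was lost without eGFPhi replicate 2 or any 1 eGFPlo replicate (adjusted p of 0.0559 to 0.100).

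Among 6 tested genes of mitochondrial proteins, 0 rose and 4 fell, Mrpl38 among them (median log2 fold change -0.34). The share called was 66.7%, near the 64.0% of all tested genes, of which 31.7% fell. Atp5h, a subunit of the stalk of ATP synthase, had 21.3, 19.3 and 20.5 CPM in eGFPhi libraries, against 35.9, 37.6 and 36.7 CPM in eGFPlo libraries. It was 1.81-fold lower, with both groups tight and far apart (log2 fold change -0.86, SE 0.06, edgeR adjusted p = 1.53e-05). Mrpl58, a mitochondrial ribosome protein with peptidyl-tRNA hydrolase activity, had 8.81, 7.61 and 7.76 CPM in eGFPhi libraries and 12.9, 9.23 and 14.3 CPM in eGFPlo libraries (log2 fold change -0.60, SE 0.17, edgeR adjusted p = 0.0151), and did not pass without eGFPlo replicate 3 (log2 fold change -0.46, adjusted p = 0.0533). Fdxr, which passes electrons from NADPH to ferredoxin, had a log2 fold change of -0.40 (edgeR adjusted p = 0.0156), a call lost without eGFPhi replicate 2 or 3 (adjusted p of 0.0540 and 0.0527). Mrps7, of the small mitochondrial ribosomal subunit, averaged 25.7 ± 0.411 CPM in eGFPhi and 25.8 ± 2.40 CPM in eGFPlo (SD, n = 3 each) and did not pass (edgeR adjusted p = 0.928).

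Of 9 tested genes of RNA processing and translation, 2 rose and 4 fell. Srsf2, a serine- and arginine-rich splicing factor that is recurrently mutated in human myeloid malignancies, had 180, 175 and 182 CPM in eGFPhi libraries, against 242, 258 and 243 CPM in eGFPlo libraries (log2 fold change -0.47, SE 0.03, edgeR adjusted p = 1.65e-05). Srp68, of the signal recognition particle, had 77.0, 79.8 and 81.8 CPM in eGFPhi libraries and 111, 103 and 110 CPM in eGFPlo libraries (log2 fold change -0.44, SE 0.04, edgeR adjusted p = 7.14e-05). Nup85, of the nuclear pore scaffold, had 44.6, 48.5 and 49.7 CPM in eGFPhi libraries and 68.5, 67.0 and 68.9 CPM in eGFPlo libraries (log2 fold change -0.51, SE 0.05, edgeR adjusted p = 8.30e-05). In all 3 every eGFPhi value lay below every eGFPlo value. Jmjd6, an oxygenase that hydroxylates splicing factors, went the other way, with 71.9, 68.4 and 71.2 CPM in eGFPhi libraries and 54.1, 49.4 and 47.5 CPM in eGFPlo libraries (log2 fold change 0.49, SE 0.06, edgeR adjusted p = 1.89e-04). Sap30bp, Mif4gd and Tsen54 stood between -0.07 and 0.08 on the log2 scale and did not pass.

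Of 5 tested genes of ubiquitin, SUMO and protein turnover, 1 rose (Kctd2, described with its neighbour Atp5h) and 2 fell. Rhbdf2, the rhomboid-like protein iRhom2 that escorts the protease ADAM17 to the cell surface, had 13.9, 15.1 and 14.7 CPM in eGFPhi libraries, against 23.6, 23.5 and 27.4 CPM in eGFPlo libraries (log2 fold change -0.77, SE 0.09, edgeR adjusted p = 1.79e-04). Sumo2, the small ubiquitin-like modifier, fell by 0.35 on the log2 scale (29.7 ± 2.63 CPM in eGFPhi, 37.8 ± 2.29 CPM in eGFPlo; SD, n = 3 each). Ube2o, a ubiquitin-conjugating enzyme, had a log2 fold change of 0.13 (edgeR adjusted p = 0.106), which passed without eGFPlo replicate 2 (0.19, adjusted p = 0.0131). Rnf157, a RING finger protein, had -0.21 (edgeR adjusted p = 0.145), which passed without eGFPhi replicate 2 (-0.34, adjusted p = 0.0199).

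Of 5 tested genes of chromatin, DNA repair and cell division, Fbf1 and H3f3b rose, and Jpt1 and Ten1 fell. Fbf1 was counted in this list and not among the cilia genes, although its role given above is at the base of cilia. H3f3b, which encodes the replication-independent histone H3.3 and lies 77.8 kb from Trim47, had 465, 485 and 475 CPM in eGFPhi libraries and 403, 410 and 398 CPM in eGFPlo libraries. The groups do not overlap, though the change is small (log2 fold change 0.24, SE 0.02, edgeR adjusted p = 9.15e-05), and reads shared with H3.3 gene copies elsewhere may move it. Jpt1, a microtubule-associated protein, fell by 0.40 on the log2 scale (25.6 ± 2.29 CPM in eGFPhi, 33.8 ± 0.439 CPM in eGFPlo; SD, n = 3 each), and the DNA helicase gene Recql5 did not pass (0.07, edgeR adjusted p = 0.437). Ten1, of the telomere-protecting CST complex, had 9.52, 10.7 and 10.4 CPM in eGFPhi libraries and 12.9, 13.3 and 13.1 CPM in eGFPlo libraries, without overlap (log2 fold change -0.36, SE 0.09, edgeR adjusted p = 0.00809); DESeq2 gave an adjusted p of 0.0548, and part of its exon sequence overlaps a gene on the opposite strand.

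Of 4 tested genes of epithelial adhesion, cytoskeleton and cilia, 1 rose and 1 fell. Evpl, encoding envoplakin of the epidermal cornified envelope, had 5.61, 4.69 and 5.96 CPM in eGFPhi libraries, against 8.22, 9.23 and 9.19 CPM in eGFPlo libraries (log2 fold change -0.72, SE 0.13, edgeR adjusted p = 0.00171). The ciliogenesis factor gene Foxj1 met the filter only through eGFPhi, was at or under 1.25 CPM in every library (log2 fold change 0.93, edgeR adjusted p = 0.0455) and lost its call without eGFPhi replicate 1 or any 1 eGFPlo replicate (adjusted p of 0.0581 to 0.146). Integrin beta-4 gene Itgb4 and the unconventional myosin gene Myo15b, with log2 fold changes of -0.37 and -0.38, did not pass. Of 5 tested genes of metabolic enzymes and glycosylation, 1 rose and 2 fell: the galactokinase gene Galk1 by 0.32 and the nucleotidase gene Nt5c by 0.28 on the log2 scale. Nat9 and Fads6 had log2 fold changes of 0.19 and -0.22 and did not pass.

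Of 3 tested genes of receptors, channels and transporters, 0 rose and 2 fell. Tmem104, a transmembrane protein, had 7.57, 11.1 and 7.55 CPM in eGFPhi libraries and 16.4, 20.5 and 17.9 CPM in eGFPlo libraries. It was 2.06-fold lower, with the highest eGFPhi value below the lowest eGFPlo value (log2 fold change -1.04, SE 0.17, edgeR adjusted p = 0.00117). Mfsd11, of the major facilitator family, had 5.07, 4.15 and 3.49 CPM in eGFPhi libraries and 5.05, 6.57 and 6.64 CPM in eGFPlo libraries, groups that overlap (log2 fold change -0.55, SE 0.18, edgeR adjusted p = 0.0269); the call was lost without eGFPhi replicate 2 or 3 or eGFPlo replicate 2 or 3 (adjusted p of 0.0678 to 0.0841). Tmem94 had a log2 fold change of 0.06 and did not pass.

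Smim6 and Smim5 encode small integral membrane proteins and lie inside the body of Recql5 on the opposite strand, 192 and 199 kb from Trim47. Smim6 (115912017 to 115913920) had 5.96, 5.61 and 7.04 CPM in eGFPhi libraries, against 1.20, 1.47 and 0.941 CPM in eGFPlo libraries. It was 5.19-fold higher (log2 fold change 2.38, SE 0.20, edgeR adjusted p = 3.57e-05). Smim5, next to it, fell, with 5.96, 5.99 and 5.91 CPM in eGFPhi libraries and 8.14, 10.97 and 8.31 CPM in eGFPlo libraries (log2 fold change -0.62, SE 0.14, edgeR adjusted p = 0.00589). Neighbours nested in the same host gene thus differed in direction, and the host Recql5 did not pass. The 250 bases before the RefSeq start of Smim6 are shown because it had the largest rise among genes with a mean of at least 1 CPM; capitals mark CG, of which it holds 6, the median of all windows, and it holds GATAA but neither CCGGAA nor CACGTG.
Smim6, chr11:115911767-115912016, plus strand: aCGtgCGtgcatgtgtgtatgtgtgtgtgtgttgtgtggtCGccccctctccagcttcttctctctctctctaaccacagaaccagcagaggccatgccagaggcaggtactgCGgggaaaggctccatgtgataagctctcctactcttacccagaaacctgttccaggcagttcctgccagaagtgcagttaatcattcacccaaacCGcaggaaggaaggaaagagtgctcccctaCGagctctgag

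Of the tested genes, 7 pairs stand head to head, on opposite strands with starts within 1000 bp of each other. In 3 of the 7 pairs the genes changed in opposite directions, beside 14.3% of the 1463 such pairs of tested genes in the genome. In 1 pair both fell, in 1 pair a single gene passed, and in 2 pairs neither passed; over the genome 23.2% of pairs were called in the same direction. The median difference in log2 fold change within a pair was 1.05 around Trim47 and 0.53 over the genome. With 7 pairs these shares are a description.

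Atp5h and Kctd2 start 166 bp apart. Kctd2, a BTB-domain adaptor of cullin-3 ubiquitin ligases, had 21.3, 16.1 and 16.6 CPM in eGFPhi libraries and 13.3, 11.7 and 12.6 CPM in eGFPlo libraries (log2 fold change 0.51, SE 0.12, edgeR adjusted p = 0.00813), where Atp5h fell by 0.86 on the log2 scale. The annotated exons of the pair do not overlap. The RefSeq sequence between both starts (GRCm38.p6) is shown on the plus strand, with its 18 CG in capitals, because it separates a gene that rose from one that fell; none of the 3 motifs searched occurs in it.
Atp5h to Kctd2, chr11:115419963-115420125, plus strand: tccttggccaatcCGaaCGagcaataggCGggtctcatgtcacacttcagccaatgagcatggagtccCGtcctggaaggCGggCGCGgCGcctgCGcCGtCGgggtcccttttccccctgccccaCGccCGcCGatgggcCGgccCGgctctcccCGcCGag

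Jmjd6 rose and its partner Mettl23, a methyltransferase gene, fell, with 5.79, 6.92 and 6.22 CPM in eGFPhi libraries and 9.59, 7.90 and 10.6 CPM in eGFPlo libraries (log2 fold change -0.56, SE 0.14, edgeR adjusted p = 0.00912). The first exons of this pair overlap on opposite strands by 172 bp, and the labels do not say whether the counting used strand, so reads there may be shared. Tmem104 fell next to Nat9, which did not pass, while Srsf2 and Mfsd11 both fell. Mfsd11 shares 288 bp of exon with Srsf2 on the opposite strand, and exons of Mettl23 overlap Srsf2 as well. Srsf2 averaged 213 CPM over all libraries, against 5.16 CPM for Mfsd11 and 7.83 CPM for Mettl23. Reads of Srsf2 may therefore be counted in Mfsd11 and Mettl23, which was not tested. Both Gga3 with Mrps7 and Recql5 with Sap30bp stayed within 0.08 of 0 on the log2 scale and did not pass. Without eGFPhi replicate 2 or 3 or eGFPlo replicate 2 or 3, 0 pairs were called in the same direction, since Mfsd11 lost its call.

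**Figure D4:**
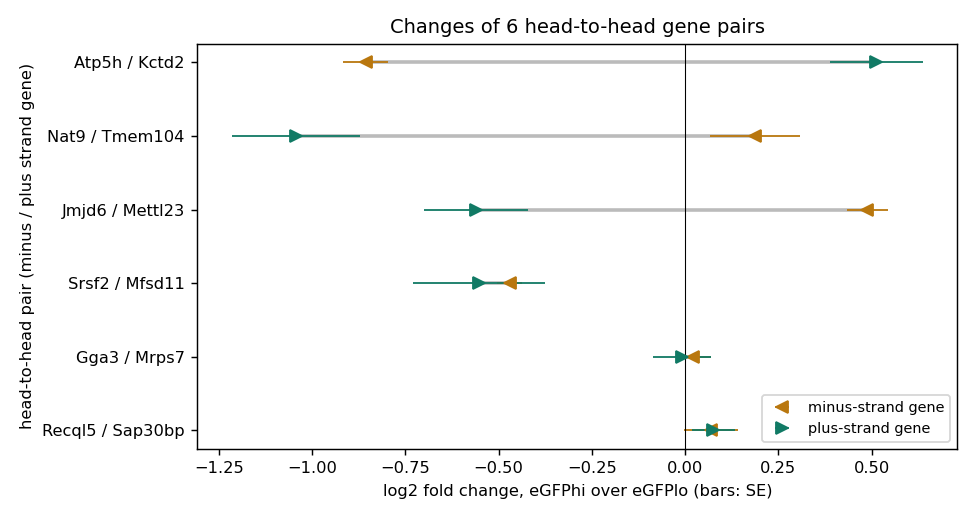
Log2 fold change (x axis, with SE bars) of both genes of 6 of the 7 head-to-head pairs (y axis), the minus-strand gene as a left-pointing and the plus-strand gene as a right-pointing triangle. Atp5h and Kctd2 lie at -0.86 and 0.51, and Recql5 and Sap30bp at 0.07 and 0.08.

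Snord1b, Snord1c and Gm26083, small RNA genes inside noncoding hosts, rose, and their hosts Snhg16 and Snhg20 did not pass; the difference between small RNA and host was not tested, and reads of a small RNA and its host exon cannot be told apart. Snord1b and Snord1c are box C/D small nucleolar RNAs, a class that guides RNA methylation, and are annotated within exon sequence of the noncoding host gene Snhg16. Snord1b had 6.05, 6.42 and 5.91 CPM in eGFPhi libraries, against 3.60, 3.91 and 4.54 CPM in eGFPlo libraries (log2 fold change 0.60, SE 0.13, edgeR adjusted p = 0.00473). Snord1c had 3.29, 3.27 and 3.34 CPM in eGFPhi libraries and 1.88, 2.38 and 2.44 CPM in eGFPlo libraries (log2 fold change 0.55, SE 0.15, edgeR adjusted p = 0.0154; DESeq2 adjusted p = 0.145). Both have a near-identical copy in each other, so the split of reads between them is uncertain. Their transcript sequences (GENCODE M21, GRCm38, plus strand) are shown for that reason, in capitals where they differ between 46 shared first and 28 shared last bases.
Snord1b, chr11:116674148-116674222, plus strand: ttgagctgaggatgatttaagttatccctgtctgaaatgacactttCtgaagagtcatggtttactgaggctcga
Snord1c, chr11:116672506-116672581, plus strand: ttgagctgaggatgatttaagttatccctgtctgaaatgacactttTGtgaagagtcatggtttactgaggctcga
The host Snhg16 had 8.72, 9.64 and 11.5 CPM in eGFPhi libraries and 14.0, 12.6 and 10.7 CPM in eGFPlo libraries, groups that overlap (log2 fold change -0.30, edgeR adjusted p = 0.0976; -0.42 without eGFPhi replicate 3 and -0.41 without eGFPlo replicate 3, where it passed at 0.0467 and 0.0470).

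The scaRNA gene Gm26083, 950 kb from Trim47 within exon sequence of the noncoding gene Snhg20, had 13.9, 14.4 and 15.001 CPM in eGFPhi libraries, against 6.85, 7.20 and 7.97 CPM in eGFPlo libraries (log2 fold change 0.97, SE 0.10, edgeR adjusted p = 8.57e-05). Snhg20 had 5.25, 5.65 and 4.93 CPM in eGFPhi libraries and 9.25, 4.05 and 6.59 CPM in eGFPlo libraries (log2 fold change -0.31, edgeR adjusted p = 0.336), and passed without eGFPlo replicate 2 (-0.57, adjusted p = 0.0311). Over the whole table, of all tested genes annotated as snoRNA 165 of 230 rose and 9 fell (median log2 fold change 0.88), and of those annotated as scaRNA 18 of 23 rose and 0 fell (median 1.005). The libraries were made from poly-A selected RNA, which does not aim at such RNAs.

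**Figure D5:**
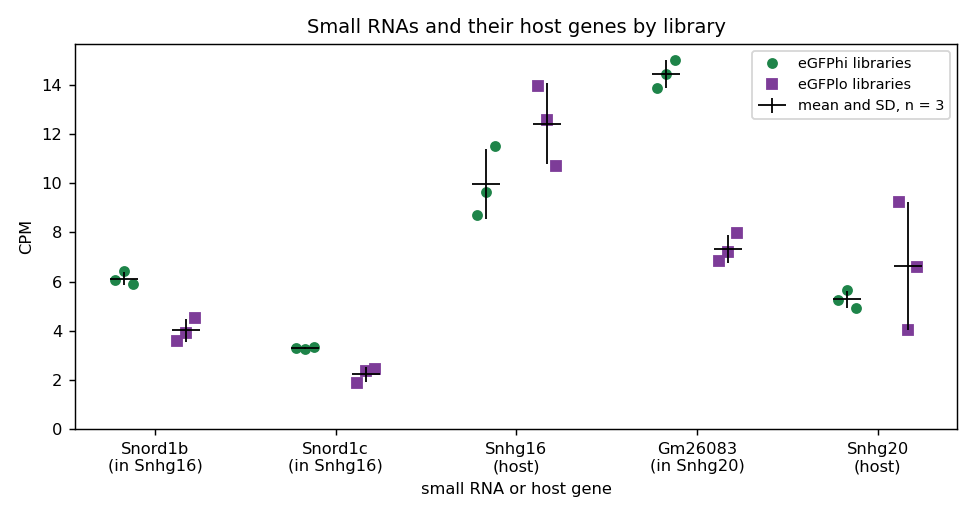
CPM by library (y axis) of 3 small RNA genes and the 2 noncoding genes whose exons contain them (x axis); points are libraries, bars the mean and SD of n = 3. Snord1b, Snord1c and Gm26083 do not overlap between groups, and the hosts Snhg16 and Snhg20 do.

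Of 15 tested genes in none of the role lists, 5 rose and 3 fell, Smim6, Smim5 and the 3 small RNAs above among them. Ubald2 and Armc7 fell by 0.38 and 0.30 on the log2 scale, the second without a call when eGFPhi replicate 2 or 3 or eGFPlo replicate 2 or 3 was left out (edgeR adjusted p of 0.0860 to 0.0982). Prpsap1, related to phosphoribosyl pyrophosphate synthetase, rose by 0.21 with overlapping groups (edgeR adjusted p = 0.0423), and lost its call without eGFPhi replicate 2 or 3 or eGFPlo replicate 1 or 2 (0.102 to 0.129). Sphk1, a sphingosine kinase gene, had 0.890, 0.615 and 2.004 CPM in eGFPhi libraries and 2.57, 2.52 and 1.72 CPM in eGFPlo libraries (log2 fold change -0.94, edgeR adjusted p = 0.0900), and passed without eGFPhi replicate 3 (-1.64, adjusted p = 0.00475). The inhibitory receptor gene Cd300lf, with 0.890, 1.19 and 1.39 CPM in eGFPhi libraries and 1.46, 1.89 and 1.61 CPM in eGFPlo libraries, was lower in every eGFPhi library but did not pass (edgeR adjusted p = 0.0930). The pseudogene Gm11703 had a log2 fold change of 0.09 and did not pass.

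The 15 genes under the filter had at most 28 counts in a group. Qrich2 had 0, 6 and 3 counts in eGFPhi libraries and none in eGFPlo libraries, 2.33-fold above the floor of 3 counts over the eGFPlo group. The antisense gene Gm11695 had 4, 3 and 5 counts in eGFPhi and none in eGFPlo, 3.11-fold above that floor. The globin gene Cygb had 4 counts, all in eGFPhi replicate 3. The galanin receptor gene Galr2 and the small RNA gene Gm25837 had no count in eGFPhi and 8 counts each in eGFPlo. Their eGFPlo level was 3.43-fold above a floor of 3 counts over the eGFPhi group. Slc16a5 had 2 counts in eGFPhi and 8 in eGFPlo, and St6galnac2 (ENSMUSG00000057286) 4 in eGFPhi and 13 in eGFPlo; for both, all eGFPlo counts lay in replicate 3. A second St6galnac2 entry had 0 counts in eGFPhi and 2 in eGFPlo. Cdk3, annotated as a polymorphic pseudogene, had 7 counts in eGFPhi and 19 in eGFPlo, a ratio of 0.286 with an exact 95% counting interval of 0.102 to 0.711. The pseudogenes Gm11694 and Gm11702 had 26 and 6 counts in eGFPhi and 28 and 4 in eGFPlo, and Snord1a, Gm27401 and Mir6516 had exactly 1 count in every library, as did 235 genes of the whole table.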

How the data were processed

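The authors deposited raw read counts and FPKM values per gene for 6 libraries, per the file headers; the FPKM values were not used. The submitters' processing notes name CASAVA 1.8, HISAT2, StringTie and edgeR and list hg38 and GRCm38; they give no roles, and no counter, strand setting or rule for shared reads. Per the labels' protocols, RNA with an integrity number above 7.0 was poly-A selected for stranded paired-end libraries. All 78 genes had a GENCODE M21 identifier and 76 its coordinates. The counts went into edgeR 4.0.16 (R 4.3.3) with filterByExpr defaults (minimum count 10, total 15), TMM factors, quasi-likelihood F test with group as the only term, Benjamini-Hochberg adjustment over 18081 genes. Of the 63 tested genes, 28 share exon sequence with another annotated gene, 23 of them on the opposite strand, where reads may be misassigned. The pipeline was tested on simulated data. Intervals cover counting error only, and floors (3 counts, or 0.115 to 0.267 CPM per library) cover only that of the side without counts. Alternatives were RLE and upper-quartile factors, other filters, DESeq2 1.42.0, limma-voom (limma 3.58.1), an assumed coefficient of variation, a replicate block and leaving out each library; the RefSeq gene body of Trim47 was added after seeing the data. Text names genes within 50 kb, the 10 largest rises and 10 largest falls past the threshold with non-overlapping groups and a mean over libraries of 1 CPM or more, predicted gene models left out, up to 4 genes per role list, head-to-head pairs, and others where a count needed them. The genes and lists were chosen with earlier results of these data known. Counts and medians cover all tested genes; individual values of a few of them are not reported here.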

Additional observations from a re-analysis of the deposited data

How the results depend on the processing

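Over the alternatives run, counts of 19 higher and 23 lower genes stayed within 1.5 times, except with an assumed coefficient of variation of 0.2. That setting gave 7 higher and 7 lower, with 2 higher within 50 kb. It called 0 head-to-head pairs in the same and 0 in opposite directions. The 35 tested genes without exon overlap are a smaller set, with a median log2 fold change of -0.22. Of them 11 rose (31.4%) and 16 fell (45.7%), beside 30.2% and 36.5% of all 63. Leaving out 1 library gave 15 to 17 higher, 20 to 23 lower, 4 to 5 higher within 50 kb, medians of -0.18 to -0.053, a Spearman coefficient with distance of -0.26 to -0.204, and 0 to 1 pairs in the same direction. Within 50 kb, 3 genes rose by start-site distance and 4 by the RefSeq gene body. The coefficient with distance was -0.29 for protein-coding genes, -0.23 between start sites and -0.24 to the RefSeq gene body. DESeq2 and the replicate block each gave 0 pairs in the same direction. With the replicate block 17 rose and 20 fell. Residuals of same-numbered libraries had r of -0.0133, 0.000555 and -0.0108. These values show no shared deviation by replicate number, but cannot tell whether same-numbered libraries came from the same animals or sort. Of the 42 calls, 33 held without any 1 library and 12 with the assumed coefficient. Among the genes reported, signs changed for 2 that did not pass: Mrps7 (0.016 with upper-quartile factors, 0.0059 without filter, 0.0092 with at least 5 CPM, -0.0728 to 0.0603 without 1 library) and Tsen54 (-0.0108 to 0.13). The cause was not tested. Depth limits genes under about 1 CPM.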
